A study of Gallus gallus with 16 samples.

Results

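The genes described here are 7 chicken genes of cell adhesion and the actin cytoskeleton, ITGAV, PARVA, CAPN2, ACTB, MYO10, ENC1 and DST, out of 17854 loci in the deposited count table. Each was taken by the Ensembl identifier that the study's own list of genes differing between these birds gives for its symbol, and all 7 had a row marked OK in both lines. That list was made from the same HG against LG contrast in the same birds. The ratios of the 7 genes are therefore given as a description, and nothing is read from the calls made for them below.

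The RNA came from abdominal fat of cockerels of a high growth line (HG) and a low growth line (LG), taken at 7 wk from 4 birds of each, and each library was run in 2 lanes. Both lines descend from 1 meat-type population, Bresse-Pile, and were selected in opposite directions on body weight. The birds of both lines were fed and received no treatment that the labels name. They were penned apart in the first weeks, when the LG birds alone got crushed pellets, and together afterwards. Line, this early rearing, body weight and fatness cannot be told apart in the contrast. The line field and the treatment text of the labels name HG for every sample, so the line was read from the titles and source names. The software that made the table gave 1 estimated count per gene and line with a model variance, so single birds have no values here and how much they varied was not examined. In whole fat, fewer cells of a type and less RNA per cell cannot be told apart.

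Cells hold on to their surroundings through integrins, receptors of an alpha and a beta subunit that bind matrix outside the cell and gather a plaque of adaptor proteins, the focal adhesion, inside it. The plaque is anchored to actin filaments, and proteases, motors and cross-linkers remodel this connection as a cell spreads, moves or rounds up. In mouse preadipocytes the actin network is known to be rebuilt from long stress fibres into a layer under the membrane as the cells fill with lipid.

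All 7 genes had the higher count in HG abdominal fat. Their HG/LG folds ran from 1.78 for DST to 3.41 for MYO10, with a median of 2.43. The background was the 10484 loci tested, which reached 10 or more counts in either line and were above 0 in both. Folds and log2 ratios were computed from the deposited counts after adding 1 to each, and their 95% intervals come from the deposited variances. On the log2 scale the 7 ratios lay between 0.83 and 1.77, and the median locus lay at 0.26. The cause of that shift was not tested. Relative to the median locus the 7 genes had log2 ratios of 0.57 to 1.51. All 7 intervals lay above 0, as did those of 8.68% of the loci tested and of 42.6% of the tested loci from the study's list. Those of 6 of the 7, DST excepted, lay above the median locus, as did 3.79% of the loci tested and 22.0% of those from the list. Nothing is read from either count, since the contrast chose the genes.

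**Figure D1:**
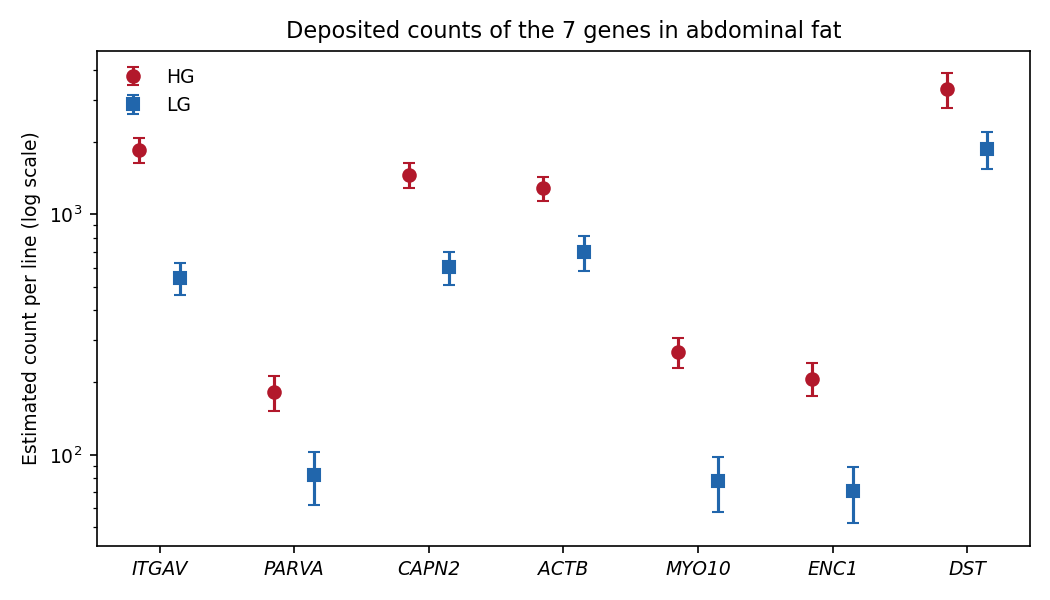
Estimated counts of the 7 genes in HG (red circles, left of each pair) and LG (blue squares, right of each pair) abdominal fat at 7 wk on a log axis, with bars of 1 model SD from the deposited variances. The HG count is the higher in every pair, and the bars of the 2 lines are apart for each gene.

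ITGAV encodes the integrin alpha V subunit, which pairs with several beta subunits in receptors for vitronectin, fibronectin and other matrix proteins. It had an estimated count of 1859 in HG, with a model SD of 226, against 546 with an SD of 84.4 in LG. The HG count was 3.40 times the LG count, with a 95% interval of 2.31 to 4.99. Of the 10484 loci tested, 137 had a higher ratio, a rank favoured by choosing the gene from the study's list. The relative SD was 12.1% in HG and 15.4% in LG.

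PARVA encodes alpha-parvin, an adaptor that binds integrin-linked kinase and actin filaments within focal adhesions. Its count was 182 in HG, with an SD of 29.8, against 82.4 with an SD of 20.6 in LG. The fold was 2.20, with a wide interval of 1.23 to 3.92. The 95% intervals of the 2 counts barely cleared each other, since the HG interval began at 124 and the LG interval ended at 123. Relative to the median locus the log2 ratio was 0.87 (95% interval 0.04 to 1.71).

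CAPN2 encodes the large subunit of calpain-2, a calcium-dependent protease that cuts talin and other adhesion proteins. The count was 1463 in HG (SD 171) and 602 in LG (SD 93.7). This was a fold of 2.43, with an interval of 1.66 to 3.56, and a log2 ratio of 1.02 relative to the median locus. Its relative SD, 11.7% in HG and 15.6% in LG, was close to that of ITGAV.

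The locus with the symbol ACTB stands for cytoplasmic actin, the building block of the filaments and a frequent reference gene. It had a count of 1283 in HG (SD 149), against 695 in LG (SD 115). The fold was 1.84, with an interval of 1.24 to 2.74. The description that comes with its identifier is that of the type 5 cytoplasmic actin, and the cytoplasmic actins are nearly identical in sequence. Which cytoplasmic actin the count measures is therefore uncertain. How reads that fit more than 1 actin gene were divided is not given in the sources used here.

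MYO10 encodes myosin X, an unconventional myosin that travels to the tips of filopodia and binds integrins through its tail. It reached 268 in HG (SD 38.8), against 77.9 in LG (SD 20.3). The fold of 3.41 was the highest of the 7, with an interval of 1.91 to 6.07. The relative SD of the LG count was 26.1%, against 14.5% for HG, so the LG count set most of the width.

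ENC1 encodes an actin-associated protein of the BTB-Kelch family, which in mouse cells is induced for a short time as preadipocytes begin to differentiate. Its count was 208 in HG (SD 32.5) and 70.6 in LG (SD 18.6). The fold was 2.91, with an interval of 1.61 to 5.28.

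DST encodes dystonin, a giant plakin that ties actin filaments to microtubules and intermediate filaments. The count was 3322 in HG (SD 543) and 1870.2 in LG (SD 327). The fold of 1.78 was the lowest of the 7, with an interval of 1.11 to 2.84. The 95% interval of its HG count began at 2257 and that of its LG count ended at 2512, so DST was the 1 gene of the 7 whose count intervals overlapped. The count intervals of the other 6 were apart, as were those of 3.8% of the loci tested with the higher count in HG and of 22.5% of the loci from the study's list. Relative to the median locus the interval of DST, from -0.11 to 1.25 on the log2 scale, included 0.

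**Figure D2:**
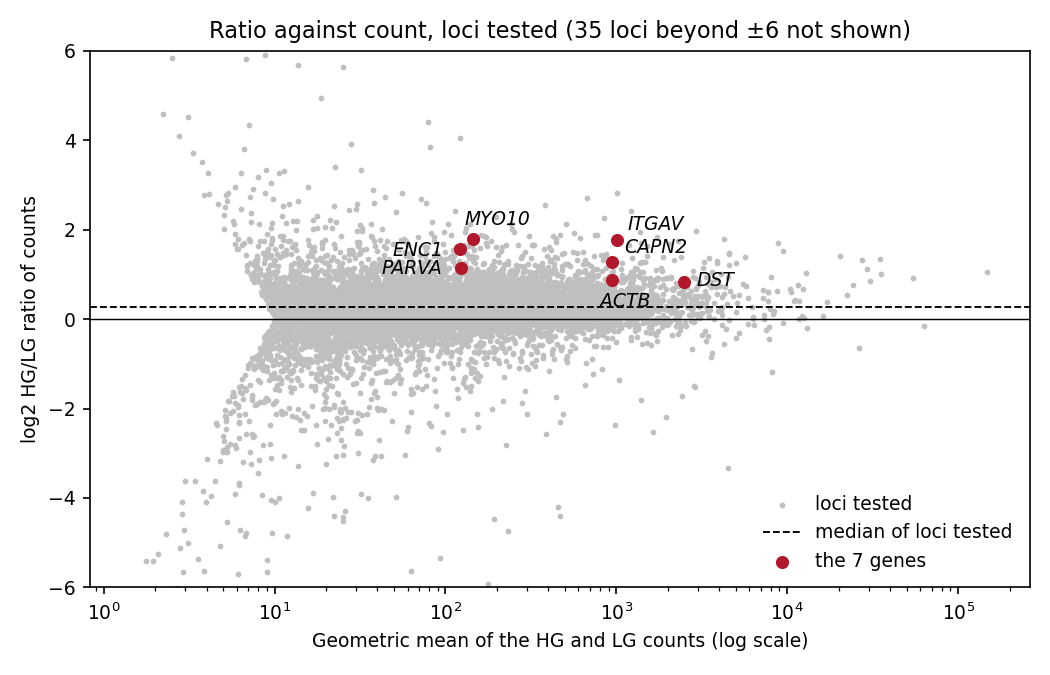
The log2 HG/LG ratio of each locus tested (vertical axis) against the geometric mean of its HG and LG counts (log axis), with the 7 genes in red, a solid line at 0 and a dashed line at the median locus, 0.26. The 7 genes lie above both lines, at ratios also reached by other loci of like count, and 35 loci beyond the vertical range of 6 are left out.

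The study applied an adjusted p of 0.05 and a fold of at least 1.2 to the test of Cuffdiff, and its list holds all 7 genes. The same limits were set here on another test, so a gene not called here did not fail the study's test. A locus was called different by its log count ratio divided by the standard error from the deposited variances. It had to pass a Benjamini-Hochberg adjusted p of 0.05 over all loci tested with a fold of at least 1.2. Of the 7 genes, 4 were called as higher in HG by this rule (ITGAV, CAPN2, MYO10 and ENC1), where 2.07% of all loci and 12.4% of the loci from the study's list were so called (and 0.858% of all loci as lower in HG). Nothing is read from that count, because the contrast itself chose the genes. With ratios centred on the median locus ENC1 dropped out and 3 of the 7 were left, against a background of 0.992% (and 1.19% as lower in HG). ENC1 also dropped out when Poisson variance was added to the deposited one, where 166 of the 10484 loci were called higher in HG (and 60 lower). After division by the column totals only ITGAV was left, where 73 of the 10484 loci were called higher in HG (and 163 lower). With the variance divided by 4, the number of birds per line, all 7 were called, as were 22.2% of the loci tested (and 4.87% as lower in HG). The sources used here do not say whether the variance describes 1 library or a mean.

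The order of the 7 ratios was MYO10, ITGAV, ENC1, CAPN2, PARVA, ACTB and DST, from high to low. Neighbours in this order did not differ beyond their intervals, and of the 21 pairs 19 had a difference whose 95% interval included 0, taking the genes as independent. The other 2 pairs set ITGAV against ACTB and against DST. The intervals were not adjusted for the 21 comparisons, so these 2 differences are given as a description. The log2 ratio of ITGAV exceeded that of ACTB by 0.88 (95% interval 0.09 to 1.68) and that of DST by 0.94 (95% interval 0.06 to 1.81). Such differences within a line pair do not depend on the scaling of the columns. The HG/LG fold was 1.84 times that of ACTB for ITGAV, 1.85 times for MYO10, 1.58 times for ENC1, 1.32 times for CAPN2 and 1.19 times for PARVA. The intervals of the last 4 included no difference from ACTB. The interval for MYO10 ran from -0.12 to 1.90 on the log2 scale. At its lower depth a difference from ACTB as large as that of ITGAV could not be told from none.

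The 4 genes with larger counts, ITGAV, CAPN2, ACTB and DST, had relative SDs of 11.6 to 16.4% in HG and of 15.4 to 17.5% in LG. PARVA, MYO10 and ENC1 had relative SDs of 14.5 to 16.4% in HG and of 25.0 to 26.4% in LG. Over the loci tested the medians were 20.2% in HG and 24.6% in LG. DST had the largest HG count of the 7 and, with PARVA, the largest relative SD in HG. Its relative SD was 16.4%, where the 154 loci within 1.5-fold of its HG count had a median of 12.8%. The part of the variance that the software assigns to the spread between replicates made up 60.2% of the total for DST in HG and 93.7% in LG. For the other 6 genes it was 98.2 to 103% in HG and 87.5 to 100% in LG. The part from uncertain assignment to isoforms was 0 for all 7 genes.

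**Figure D3:**
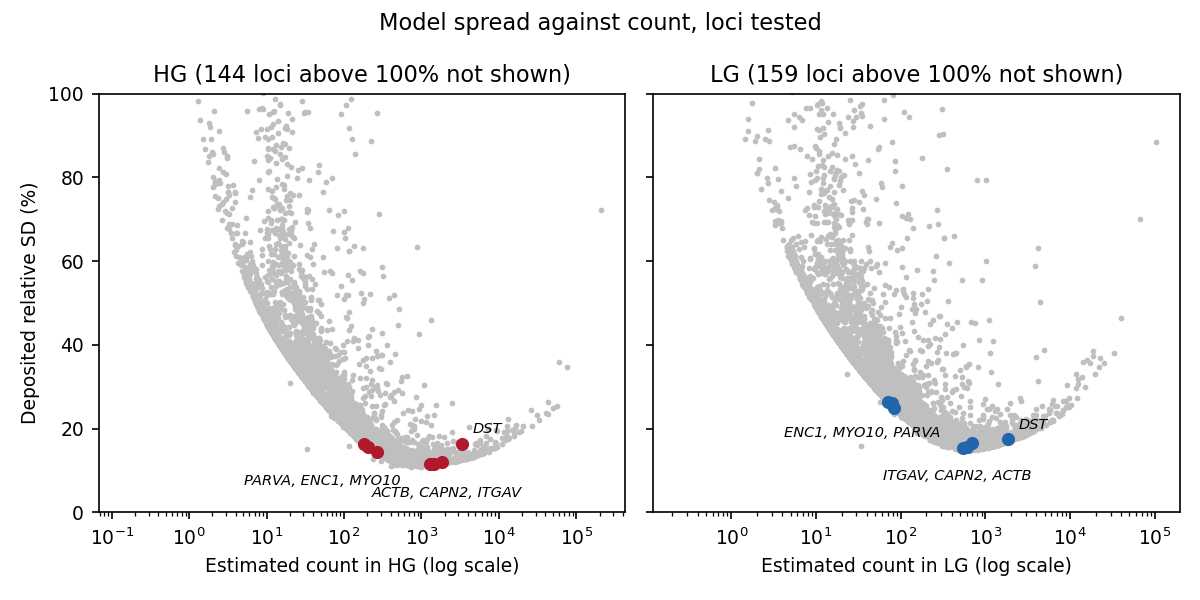
Relative SD from the deposited variance (vertical axis, percent) against the estimated count (log axis) of the loci tested, for HG on the left and LG on the right, with the 7 genes in colour. The genes lie close to other loci of like count except DST in HG, at 16.4%.

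Of the families to which the 7 genes belong, 237 further genes were listed in 8 groups by their textbook roles. Of these, 53 were on the study's list of differing genes, 42 had a row in the count table and 41 were tested. As for the 7 genes, a symbol was at hand only for genes on that list, so the directions of these 41 were favoured in advance and are not independent evidence. The rows read from the list run from the highest ratio downwards and stop before the genes with the largest LG excess, so family members with a large LG excess can be missed. Of the 41, 9 rose in HG (22.0%, against 12.4% of the tested loci of the study's list) and 1 fell (2.44%, against 0.762%). With ratios centred on the median locus 3 rose (7.32%, against 6.03% of the loci of that list) and 3 fell (7.32%, against 1.94%). The median log2 ratio of the 41 was 0.81, against 0.26 over all loci tested. All loci are not a like background for genes taken from that list, so nothing is read from this gap. Of the 41, 29 lay above the median locus, as did 61.7% of the tested loci of the study's list.

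Among the integrin subunits, 5 of the 19 listed beside ITGAV were tested, with 1 rising and 1 falling. ITGA11, the alpha 11 subunit of a collagen receptor of fibroblasts, had a count of 898 in HG (SD 104), against 246 in LG (SD 43.6), and a fold of 3.64 (95% interval 2.41 to 5.52). ITGB4, the beta 4 subunit of the hemidesmosomes that fix epithelial cells to their basement membrane, fell to 140.3 in HG (SD 25.7), against 345 in LG (SD 58.3). Its log2 ratio was -1.29 (95% interval -1.99 to -0.59). Both calls held after centring. ITGA9, ITGA8 and ITGB2, the last being the beta subunit of leukocyte integrins, had log2 ratios of 0.91, -0.43 and -0.20 and did not pass. The beta subunits that pair with integrin alpha V, and its ligands vitronectin, fibronectin and osteopontin, were not analysed here. The study's time-course microarray lists FN1, the fibronectin gene, among its top genes higher in HG.

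Of the integrin ligands, 7 of 26 were tested, and all 7 had ratios above the median locus. Of the tested loci of the study's list, 61.7% lay above it. THBS2, thrombospondin-2 of the matrix, counted 586 in HG (SD 86.8), against 162 in LG (SD 32.1). It rose in HG with a fold of 3.61 (95% interval 2.23 to 5.85), before and after centring. NID2, a nidogen of the basement membrane, counted 1551 in HG (SD 183), against 825 in LG (SD 131). Its fold of 1.88 (95% interval 1.28 to 2.77) passed as deposited and not after centring. The other 5, chosen for naming after their values were seen, were COL6A2, COL6A3, LAMA2, LAMA4 and THBS4, with log2 ratios of 0.62 to 1.62, and none passed.

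The focal adhesion group had 9 tested genes beside PARVA, and 8 of these lay above the median locus. The share over the tested loci of the study's list was 61.7%. FERMT2, the kindlin that helps to switch integrins on, counted 1934 in HG, against 1049 in LG. Its log2 ratio was 0.88 (95% interval 0.32 to 1.44) and missed the threshold. The gene of the group with the lower count in HG was PTK2B, a kinase of the focal adhesion kinase family, at 52.7 against 91.9 in LG, which did not pass. Integrin-linked kinase, PINCH, talin and paxillin were not analysed here.

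**Figure D4:**
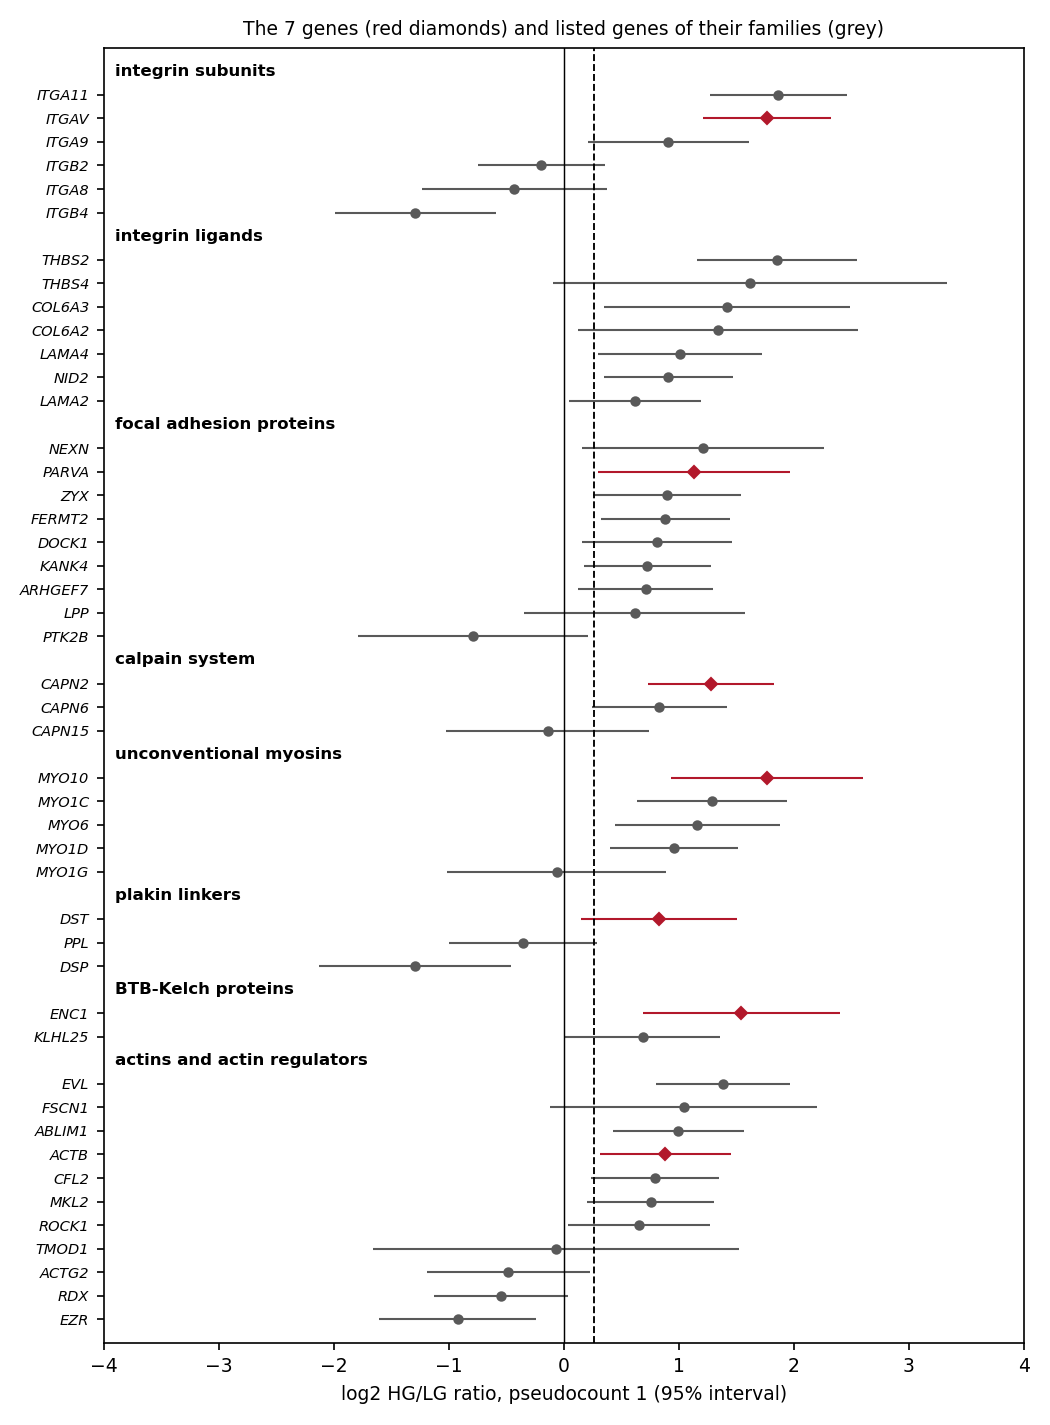
The log2 HG/LG ratios (pseudocount 1) with 95% intervals of the 7 genes (red diamonds) and of 39 further tested genes of their families (grey circles), by group, with a solid line at 0 and a dashed line at the median locus. ITGAV and ITGA11 lie at the right end of the integrins and ITGB4 at the left, while DST lies to the right of both other plakins.

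The calpain system had 2 tested genes beside CAPN2, and neither passed. CAPN6, a calpain without an active protease site, had a count of 585 in HG (SD 72.1), against 328 in LG (SD 54.9). Its log2 ratio was 0.83 (95% interval 0.25 to 1.42). CAPN15 counted 103 in HG, against 113 in LG (log2 ratio -0.14, 95% interval -1.02 to 0.74). The small calpain subunit, the inhibitor calpastatin and calpain-1 were not analysed here.

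Of the unconventional myosins, 5 were tested beside MYO10, and MYO1C and MYO1D were among those that rose in HG. MYO1C, which in mouse fat cells helps to bring glucose transporters to the membrane, had a count of 6033 in HG (SD 850.1), against 2471 in LG (SD 453). Its fold was 2.44 (95% interval 1.55 to 3.84). MYO1D, a single-headed myosin of the same class, had a fold of 1.94 (95% interval 1.32 to 2.86). Neither passed after centring. MYO6, which walks towards the minus end of the filament, did not pass, at 1.16 on the log2 scale (95% interval 0.44 to 1.88), nor did MYO1G, known from blood cells, at -0.06. MYO1A was listed at 0 in both lines. Its symbol came from the study's list of differing genes, so the 0 is not read as absence of expression.

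DST was the 1 plakin of the 3 tested with a higher count in HG, and it was chosen from genes that differed in this contrast. DSP, desmoplakin of the desmosomes, had a count of 83.1 in HG (SD 19.0), against 205 in LG (SD 39.3). Its log2 ratio was -1.30 (95% interval -2.13 to -0.46). It did not pass as deposited and was called as lower in HG after centring, at -1.56. PPL, periplakin of the cornified cell border, counted 1868 in HG (SD 229), against 2390.3 in LG (SD 456), and did not pass. MACF1 and PLEC, the plakins most like DST in build, were not analysed here. The study's time-course microarray lists PLEC among its top genes higher in HG. Of the BTB-Kelch proteins, 1 was tested beside ENC1. KLHL25, a substrate adaptor of a ubiquitin ligase, had a count of 290.0 in HG (SD 40.6), against 180.0 in LG (SD 34.9). At 0.69 on the log2 scale it did not pass.

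The actins and actin regulators held 10 tested genes beside ACTB, and 6 of them lay above the median locus. That is near the share over the tested loci of the study's list, 61.7%. EVL, an Ena/VASP protein that speeds the growth of filaments, had a count of 711 in HG (SD 82.5), against 271 in LG (SD 46.5). Its fold of 2.61 (95% interval 1.74 to 3.91) passed before and after centring. ABLIM1, a LIM protein that binds actin, had a fold of 1.99 (95% interval 1.34 to 2.96) and passed as deposited but not after centring. EZR, ezrin, which ties membranes to actin in the microvilli of epithelia, had a count of 164 in HG (SD 28.2), against 312 in LG (SD 53.7). Its log2 ratio of -0.92 (95% interval -1.61 to -0.24) did not pass as deposited and passed as lower in HG after centring. The locus with the symbol ACTG2 counted 1462 in HG, against 2041 in LG, and did not pass (log2 ratio -0.48). The RefSeq protein tied to that identifier belongs to ACTA2, the smooth muscle actin of vessels, so it is a smooth muscle actin of uncertain type. Of 26 listed genes whose identifier carried a RefSeq protein, this was the 1 whose symbol differed there.

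Markers of other cell types differed in direction between the lines. As for the families, a symbol was at hand only for genes on the study's list of differing genes. The rows read from that list stop before the largest LG excess. The directions and sums are therefore no survey of cell types. FAP, MYOM2 and, before centring, PPARG were called higher in HG, and their part in the ratios of the 7 genes was not tested. Of the fibroblast markers 2 of 8 had a row, DCN and FAP, which summed to 10369 in HG, against 6503 in LG. DCN made up most of this sum, with 9569 in HG and 6260 in LG. It did not pass, and the 95% interval of its fold was 0.80 to 2.93. FAP rose with a log2 ratio of 1.72. Of the endothelial markers 3 of 8 had a row, with a sum of 5214 in HG and 3032 in LG, and none of the 3 passed. The 5 leukocyte markers with a row of 8 summed to 4601 in HG and 4496 in LG. Of these 5, CSF1R alone had the higher count in HG, at 2318 against 1401 in LG. The 2 smooth muscle markers with a row of 9 summed to 1690.3 in HG and 2133 in LG. Here SYNPO2 was higher in HG, at 228 against 92.5 in LG, and ACTG2 was lower. The study's time-course microarray lists TAGLN, another of the 9 smooth muscle markers, among its top genes higher in LG. DSP was the 1 mesothelial or epithelial marker of 9 with a row. SERPINC1, the 1 hepatocyte marker of 8 with a row, counted 4.40 in HG, against 64.7 in LG. The study reports the others, ALB, FGA, FGB, FGG, APOA1, TTR and APOH, as higher in LG. Of 10 skeletal muscle markers 6 had a row and summed to 1428 in HG and 534 in LG. ACTA1, the skeletal muscle actin, whose coding sequence resembles that of ACTB, made up most of that sum with 1144 in HG and 526 in LG. All 4 muscle markers tested lay above the median locus, as did 61.7% of the tested loci of the study's list. MYOM2 alone passed, at 109 in HG against 7.24 in LG. Of the loci of that list, 12.4% were called higher in HG. ACTN2 counted 67.6 in HG against 1.13 in LG, and TNNI2 23.7 against 0.33. TNNC2 was listed at 0 in both lines and MYBPC1 at 0 in LG. The study lists MYL1, without a row here, among its top genes higher in HG. Of the 10 adipocyte markers 3 had a row. Among other genes of fat cells, the study reports CEBPA and LPL as higher in HG. It reports the same for FABP4 and CD36 from its microarray, and PLIN2 as higher in LG. PPARG, the regulator of fat cell differentiation, counted 1774 in HG, against 909.9 in LG, and passed as deposited but not after centring. PNPLA2, the triglyceride lipase, counted 5366 in HG, against 12188 in LG, and passed as lower in HG after centring only. DGAT2, which makes triglyceride, was listed at 0 in both lines. As for MYO1A, the 0 of DGAT2, TNNC2 and MYBPC1 is not read as absence of expression. The study reports DGAT2 and TNNC2 as higher in HG.

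The gene with a symbol nearest to each of the 7, by distance in the pair of log2 counts over the 2 line values, was drawn from 1363 candidates. For DST it was ZYX, zyxin of the focal adhesion, with 3325 in HG and 1784 in LG. For CAPN2 it was PDGFRB, a receptor of pericytes and progenitors, with 1392 in HG and 665 in LG. For ITGAV it was EPB41L1, a protein that ties membranes to the spectrin and actin network, with 2087 in HG and 665 in LG. ITGAV was the farthest from its neighbour, at 0.33 log2 units, while the other distances were 0.02 to 0.16. For PARVA, MYO10, ENC1 and ACTB the neighbours were ZFAND4, LRRC15, OSBP2 and INPP5K. With 2 line values, likeness means a like count and a like ratio and no more.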

How the data were processed

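Abdominal fat RNA of 4 HG and 4 LG cockerels, each in 2 lanes, was sequenced by the authors. They deposited estimated counts per gene and line with model variances. Per the submitters' processing notes the tools included Cuffdiff 2.0.2, Bowtie 0.12.7 and TopHat 1.3.3, and the study's methods name the Galgal4 genome. The counts were not divided by gene length, and their scaling across the 2 columns is not given in the sources used here. The column totals were 4421254 for HG and 3365950 for LG.

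The members and gene lists were chosen with earlier results of these data known. Loci with status OK, a count above 0 in both lines and of at least 10 in the higher line were tested (10484). The natural log of the count ratio over its delta-method standard error gave two-sided normal p-values, to which the Benjamini-Hochberg adjustment was applied over these loci. A test across birds is not possible with 1 value per line, so intervals and calls rest on the deposited model variance. It covers the modelled spread, not the scaling. Whether this variance also holds counting error is not given in the sources used here. If it does, the setting with added Poisson variance counts that error again. Printed ratios have a pseudocount of 1. Symbols came from the rows of the study's list used here, 1511 of which matched the count table. Named genes were the 7 members, every listed gene called before or after centring, direct partners of the members, and the nearest gene of each. Some genes that this rule names are not reported here, though counts over the lists include them. Of 24 direct partners 1, FERMT2, had a row with a symbol. Other listed genes, among them ITGA8, ITGA9, ITGB2, PTK2B, CAPN6, CAPN15, MYO6, MYO1G, MYO1A, PPL, KLHL25 and ACTG2, were chosen for naming after their values were seen. No sequences or positions are given, since the gene table at hand is of another assembly (GRCg7b) and was used for symbols only. The calculation of ratios and calls was run on simulated data first. The simulated spread was modelled on the deposited LG variances, so this run cannot check whether the deposited variance is right. Calculations were run in Python 3.11.15 with numpy 2.4.6, pandas 2.3.3, scipy 1.17.1 and matplotlib 3.10.9.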

Additional observations from a re-analysis of the deposited data

How the results depend on the processing

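The 7 genes had the higher count in HG under each scaling and pseudocount tried. A pseudocount cannot reverse a ratio. Centring shifted all 7 log2 ratios by -0.26, and division by the column totals shifted all 7 by -0.39. Of 28 alternative values of their ratios, 24 moved by less than 1 SE. The other 4 came from division by totals and belong to the genes whose SE was smaller than that common shift. They were log2 ratios of 1.37 for ITGAV, 0.89 for CAPN2, 0.44 for DST and 0.49 for ACTB. The tally therefore does not rank the 7 genes by their dependence on scaling. Counts of calls depended on scaling and on the reading of the variance. As deposited, 217 loci were higher and 90 lower in HG. Centring on the median gave 104 higher and 125 lower, and division by column totals gave 73 and 163. Of the listed genes beside the 7, 9 were higher and 1 lower as deposited, while 3 were higher and 3 lower both after centring and after division by totals. Of the 7 genes, 4 were called as deposited and 1 after division by totals, alternatives for this count having been added after the values were seen. With the variance divided by 4, 2330 loci were higher and 511 lower, as were 29 and 6 of the listed genes, and all 7 members were called. A count minimum of 50 or none, every status and added Poisson variance kept these counts within 1.5 times, and so did other fold minimums for all loci and the 7 genes, the listed genes not having been rerun there. No paired analysis was possible because the birds of a line share 1 count, and for the same reason no bird could be left out.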

Other observations

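For ACTB in HG the part of the variance that the software assigns to the spread between replicates, 22749, exceeded the total variance of 22128. The part exceeded the total at 236 of the loci tested in HG (2.25%) and at 198 in LG (1.89%). In HG the part was under 80% of the total for DST and for 12.6% of the loci tested. What fills the remainder for DST, where the isoform part is 0, was not tested.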
